A study of Mus musculus with 4 samples.

Results

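The transcripts for the granule contents of mast cells other than the proteases were followed: histamine and serotonin synthesis and storage (Hdc, Tph1 and Slc18a2), the proteoglycan core Srgn, and the enzymes that build heparan sulfate and heparin chains (Ndst1, Ndst2, Ext1, Ext2 and Glce). Members were all probe sets whose only gene symbol in the platform annotation was one of these 9 genes, which gave 9 probe sets for 7 genes out of 22626 probe sets without controls. Slc18a2 and Ndst1 were not analysed here. The cells were mast cells grown from bone marrow of mice aged 8 to 12 weeks for 4 to 6 weeks with interleukin-3 at 5 ng/ml, either Pac1-/- or Pac1+/+ (wild-type). Pac1, the product of Dusp2, is a phosphatase of MAP kinases. Every culture of both genotypes had carried anti-DNP IgE for 18 h and was then activated for 2 h by DNP-HSA antigen at 20 ng/ml, which crosslinks the high-affinity IgE receptor, so no resting cells are compared. Each genotype had 2 cultures (replicates 1 and 2), described as independent, with 1 Affymetrix 430A array each. Per the labels, more than 98% of the cells were positive for Kit and the high-affinity IgE receptor. The labels do not describe the deleted allele or say how many mice gave marrow.

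Mast cells make histamine from histidine with the enzyme encoded by Hdc, and serotonin from tryptophan by way of Tph1, the rate-limiting hydroxylase. Slc18a2 encodes the vesicular transporter VMAT2, which loads such amines into granules. There they are held with the proteases on the negatively charged sugar chains of serglycin, the product of Srgn. A heparin chain is polymerised by the Ext1 and Ext2 complex, stripped of acetyl groups and N-sulfated by the Ndst enzymes, and then converted in part from glucuronic to iduronic acid by Glce before further O-sulfation. In mice, loss of Ndst2 is known to leave connective tissue mast cells without sulfated heparin. Mast cells grown from bone marrow with interleukin-3 are known to carry mostly chondroitin sulfate on serglycin.

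The promoters of Hdc, Tph1 and Srgn are shown because these genes read well above an intensity of 100 on every array by at least 1 probe set. They run from 250 bases before to 50 bases after each start site in RefSeq (GRCm38.p6), which lists 2 start sites for Tph1 and for Srgn, and they are written 5′ to 3′ in the direction of the gene. Capitals mark matches on either strand to TGACG, the core of the cyclic AMP response element, or to TATAAA, the TATA box.
Hdc, chr2:126618629-126618928, minus strand: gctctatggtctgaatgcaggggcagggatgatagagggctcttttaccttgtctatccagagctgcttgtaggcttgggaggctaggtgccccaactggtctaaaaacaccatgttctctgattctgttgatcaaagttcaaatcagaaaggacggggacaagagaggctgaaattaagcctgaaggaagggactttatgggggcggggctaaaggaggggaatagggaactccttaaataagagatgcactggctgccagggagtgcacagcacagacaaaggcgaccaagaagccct
Tph1, internal start, chr7:46667328-46667627, minus strand: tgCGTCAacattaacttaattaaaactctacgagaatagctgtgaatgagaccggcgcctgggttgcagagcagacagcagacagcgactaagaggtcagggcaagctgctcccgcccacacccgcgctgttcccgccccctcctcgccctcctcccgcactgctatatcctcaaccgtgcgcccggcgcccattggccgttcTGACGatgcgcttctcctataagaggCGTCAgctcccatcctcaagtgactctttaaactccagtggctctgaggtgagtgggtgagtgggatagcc
Tph1, outer start, chr7:46672488-46672787, minus strand: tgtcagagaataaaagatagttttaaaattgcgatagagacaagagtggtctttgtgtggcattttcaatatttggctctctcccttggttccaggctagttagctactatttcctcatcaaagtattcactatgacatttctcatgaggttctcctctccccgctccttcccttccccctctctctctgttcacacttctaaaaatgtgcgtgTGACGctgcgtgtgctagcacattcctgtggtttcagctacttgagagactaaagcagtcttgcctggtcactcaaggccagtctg
Srgn, internal start, chr10:62507708-62508007, minus strand: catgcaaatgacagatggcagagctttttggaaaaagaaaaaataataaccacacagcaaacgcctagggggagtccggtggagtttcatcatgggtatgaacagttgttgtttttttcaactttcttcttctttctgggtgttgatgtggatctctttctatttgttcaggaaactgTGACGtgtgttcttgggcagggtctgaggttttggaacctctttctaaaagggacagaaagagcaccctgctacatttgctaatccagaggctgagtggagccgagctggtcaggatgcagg
Srgn, outer start, chr10:62527396-62527695, minus strand: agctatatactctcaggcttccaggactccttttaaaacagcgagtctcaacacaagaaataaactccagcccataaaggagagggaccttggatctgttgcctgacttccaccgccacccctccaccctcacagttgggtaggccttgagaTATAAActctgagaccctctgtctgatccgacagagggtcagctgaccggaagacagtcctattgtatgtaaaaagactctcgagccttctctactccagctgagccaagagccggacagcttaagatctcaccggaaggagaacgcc
TGACG lay 3 times in the internal Tph1 promoter, once in the outer one, and at bases -72 to -68 of the internal Srgn promoter, and 20.8% of 32851 promoters of this length hold it. TATAAA lay at bases -98 to -93 of the outer Srgn promoter and is held by 13.6% of promoters. The other letters searched on both strands were GATAA, a core of GATA factor sites (25.4% of promoters), and CATGTG and CACGTG, E-boxes of the kind that MITF binds (14.2% and 7.15%). None of these 3 was in the 5 windows, the Hdc window held no match at all, and no matches overlapped. A match is a description of letters only, and the arrays measure RNA, not promoter activity.

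The arrays differed in ways that touch the values below. The share of probe sets deposited at 100 or more was lowest on Pac1-/- replicate 2, at 27.7%, and 33.0% to 33.9% on the other arrays. On that array the 5′ control probe set for GAPDH read 17.7, against 4446 on Pac1-/- replicate 1 and 4293 and 4726 on the wild-type arrays, and its 3′ to 5′ ratio was 191, against 0.798 to 1.36 on the others. Beta-actin gave 3′ to 5′ ratios of 293 and 54.8 on the Pac1-/- arrays and 109 and 1.58 on the wild-type arrays, in the order of replicates 1 and 2. The replicate numbers accounted for 71.9% and the genotypes for 17.9% of the sum of squares of log2 values over the 7770 tested probe sets. Dusp2 itself had normalised intensities of 109 and 75.5 on the Pac1-/- arrays and 167 and 90.7 on the wild-type arrays; the sources used here do not place its probes relative to the deletion, so it does not check the genotype labels. Of 10 mast cell markers that are not among the 9 genes, 8 read at least 100 on all 4 arrays. The exceptions were Ms4a2 and the protease gene Mcpt4. Mcpt4 reached 100 on wild-type replicate 2 only. Ms4a2 followed the replicate number, at 41.9 and 1502 in Pac1-/- and 142.6 and 3261 in wild-type replicates 1 and 2. Among the 8, the protease gene Tpsb2 read 6588 and 476 in Pac1-/- and 5838 and 7259 in wild-type replicates 1 and 2.

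No granule gene passed the test for a difference between Pac1-/- and wild-type cells: the genotypes overlapped for the brighter Hdc probe set, Tph1 and Srgn, and the intervals of all 7 tested probe sets included 0. Values are intensities after quantile normalisation, and differences are log2, Pac1-/- minus wild-type, from limma with Benjamini-Hochberg adjustment over all tested probe sets. Of the 9 probe sets, 7 had a mean of at least 100 over the 4 arrays and were tested, and 2 (the Ext1 probe set and the dimmer of the Glce pair) were not. Of the 7, 0 had a limma adjusted p under 0.05, where the background was 0 of 7770 (0%), and their adjusted p lay between 0.866 and 0.995. At an unadjusted p under 0.05 there were also 0 of 7, where the background was 263 of 7770 (3.38%). With the replicate number as a block, Hdc 1451796_s_at had a limma unadjusted p of 0.0471 (adjusted p = 0.430). In that fit 899 of 7770 probe sets had an unadjusted p under 0.05. Without Pac1-/- replicate 1, Hdc 1451796_s_at and Ndst2 were at -2.52 and -1.95, with Pac1-/- replicate 2 the only Pac1-/- array left. Of the 7 in the main fit, 3 differences were above 0 and 4 below, with a median of -0.12. Over all tested probe sets the median was 0.06 and 52.8% were above 0. The genotypes did not overlap in 2 of 7 probe sets, both with Pac1-/- below wild-type, where 37.7% of all tested probe sets did not overlap in either direction and 13.4% had Pac1-/- below. The smallest p that an exact permutation test allows for 2 arrays against 2 is 0.3333, and no such test was run. Nothing in the labels names the separate mice behind the cultures beyond calling the cultures independent. The p-values rest on the spread between the 2 arrays of each genotype, moderated by limma over all tested probe sets. That spread includes the gap between replicate numbers.

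**Figure D1:**
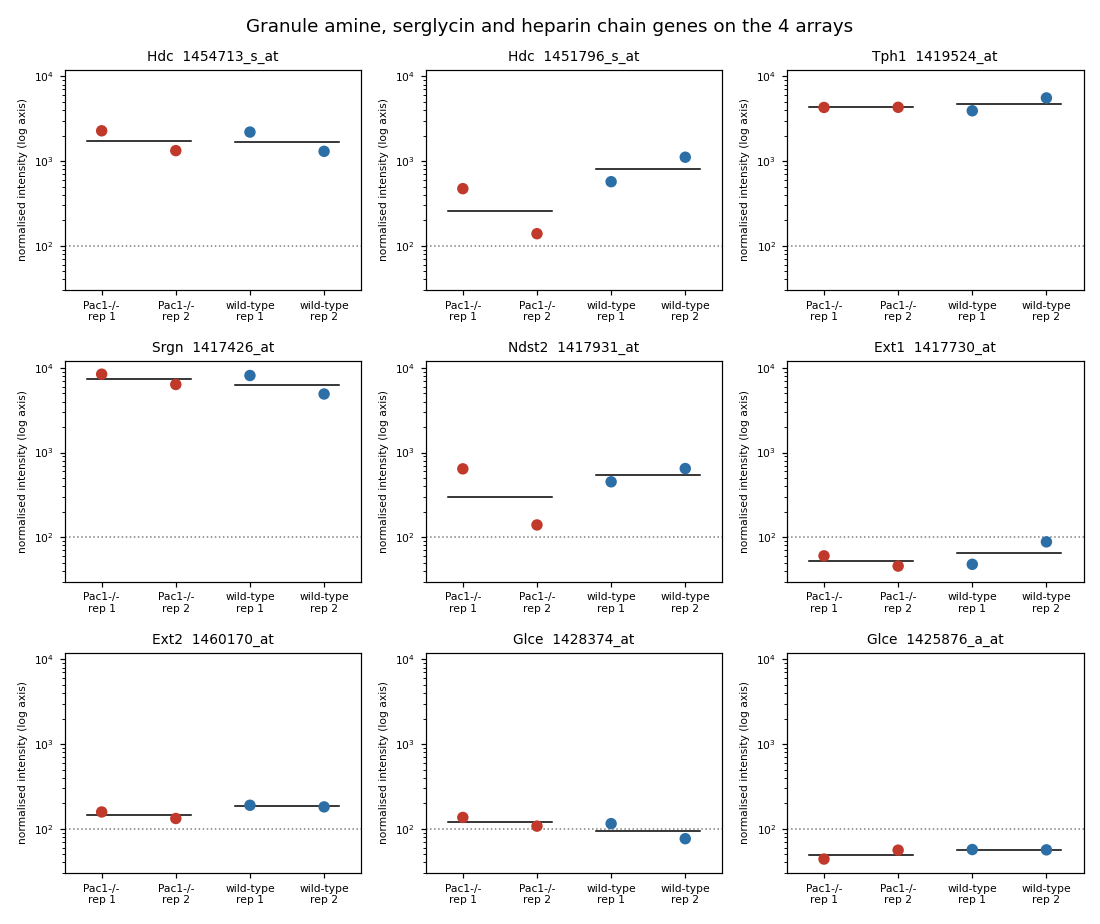
Normalised intensity (log axis) of the 9 probe sets, 1 panel each, on the Pac1-/- arrays (red) and the wild-type arrays (blue); black lines are the mean of log2 values of each genotype and the dotted line is the minimum of 100 for the mean over arrays. The genotypes overlap for Tph1, Srgn and the brighter Hdc probe set, and Srgn and that Hdc probe set are lower on both replicate 2 arrays. The second Hdc probe set and Ndst2 are lowest on Pac1-/- replicate 2, at 139 and 139.8.

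Histidine decarboxylase RNA was measured by a pair of probe sets that gave different pictures. The brighter, 1454713_s_at, read 2276 and 1328 in Pac1-/- replicates 1 and 2, against 2199.5 and 1303 in wild-type replicates 1 and 2. Both replicate 1 arrays were thus high and both replicate 2 arrays low, and the genotypes overlapped almost fully. Its difference was 0.04 ± 0.52 (SE, n = 2 per genotype, 95% interval from -1.46 to 1.54; adjusted p = 0.995 by limma), with 0.05 in the replicate 1 pair of arrays, Pac1-/- minus wild-type, and 0.03 in the replicate 2 pair. The replicate 2 minus replicate 1 difference was -0.78 in Pac1-/- and -0.76 in wild-type cells, so 99.7% of this probe set's sum of squares lay between the replicate numbers. With 1 array left out the sign of the genotype difference followed that gap, at 0.43 without Pac1-/- replicate 2 and -0.35 without Pac1-/- replicate 1.

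The other Hdc probe set, 1451796_s_at, read 472 and 139 in Pac1-/- replicates 1 and 2, against 570.45 and 1110.45 in wild-type replicates 1 and 2. Both Pac1-/- arrays lay below both wild-type arrays, and the array that stood out was Pac1-/- replicate 2. The difference was -1.64 ± 0.81 (SE, n = 2 per genotype, 95% interval from -3.97 to 0.69; adjusted p = 0.866 by limma), the lowest p of the 7 probe sets but outside the test's threshold. It was -0.27 in the replicate 1 pair and -3.00 in the replicate 2 pair. It was -0.75 without Pac1-/- replicate 2 and -2.52 without Pac1-/- replicate 1. The mean of the 2 probe sets gave -0.80 for Hdc. Pac1-/- replicate 2 is also the array with the low 5′ GAPDH signal. Beta-actin 3′ to 5′ ratios were higher on both replicate 1 arrays. The part of RNA quality in this value was not tested. By Affymetrix naming, an s in the suffix marks a probe set that may bind more than 1 transcript, and both Hdc probe sets carry it.

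Tryptophan hydroxylase 1 RNA was bright and even. Tph1 (1419524_at) read 4297 and 4316 in Pac1-/- replicates 1 and 2, against 3925 and 5565 in wild-type replicates 1 and 2. The wild-type arrays were the lowest and the highest of the 4, with both Pac1-/- arrays between them. The difference was -0.12 ± 0.39 (SE, n = 2 per genotype, 95% interval from -1.23 to 0.99; adjusted p = 0.977 by limma), or 0.13 in the replicate 1 pair and -0.37 in the replicate 2 pair. It was 0.13 without wild-type replicate 2. Centring each array on its median moved the difference to 0.60, but the median over all tested probe sets moved to 0.66, so that Tph1 lay 0.06 below that median there and 0.17 below the median of 0.06 with quantile normalisation.

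Serglycin carries the chains that hold amines and proteases in the granule. Srgn (1417426_at) read 8419.8 and 6366 in Pac1-/- replicates 1 and 2, against 8125.5 and 4913 in wild-type replicates 1 and 2. The replicate 2 array was the lower of each genotype, and the genotypes overlapped. The difference was 0.21 ± 0.46 (SE, n = 2 per genotype, 95% interval from -1.10 to 1.52; adjusted p = 0.954 by limma), made up of 0.05 in the replicate 1 pair and 0.37 in the replicate 2 pair. It was -0.15 without wild-type replicate 2. Other blood cells, macrophages and platelets among them, also express Srgn. The macrophage gene Cd68 read 5638 and 121 in Pac1-/- replicates 1 and 2 and 7512 and 118 in wild-type replicates 1 and 2, so it too was higher on the replicate 1 arrays. Of 12 macrophage markers, only Cd68 and Adgre1 were bright enough to test. Adgre1 lay between 217 and 222 in Pac1-/- and between 248 and 250.5 in wild-type cells, and C1qa read at most 4.7 on any array. The part of other cells in the Srgn values was not tested. Fewer cells of a type and less RNA per cell cannot be told apart in these bulk samples.

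Ndst2, the N-deacetylase and N-sulfotransferase tied to heparin in mast cells, gave the widest interval of the 3 tested heparin chain enzymes among the granule genes (Ndst2, Ext2 and Glce). Its probe set, 1417931_at, read 642 and 139.8 in Pac1-/- replicates 1 and 2, against 451.5 and 648 in wild-type replicates 1 and 2. The Pac1-/- arrays were the second highest and the lowest of the 4, so the genotypes overlapped. The difference was -0.85 ± 0.90 (SE, n = 2 per genotype, 95% interval from -3.42 to 1.72; adjusted p = 0.878 by limma). It was 0.51 in the replicate 1 pair and -2.21 in the replicate 2 pair, and it was 0.25 without Pac1-/- replicate 2 and -1.95 without Pac1-/- replicate 1. The direction thus rested on Pac1-/- replicate 2, as the size did for Hdc 1451796_s_at. That array had the low 5′ GAPDH signal, but the beta-actin 3′ to 5′ ratio was higher on both replicate 1 arrays. The part of RNA quality was not tested. Pac1-/- replicate 2 was the lowest of the 4 arrays for Ndst2, Hdc 1451796_s_at (139), Ext2 (132) and Ext1 (45.7). It was not the lowest for the other Hdc probe set, Tph1 (4316), Srgn (6366) or either Glce probe set. Among other pathway genes that array was the lowest for some, such as Gusb (24.65), and the highest for others, such as Hs3st1 (3356). How often it was the lowest over all tested probe sets was not counted.

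**Figure D2:**
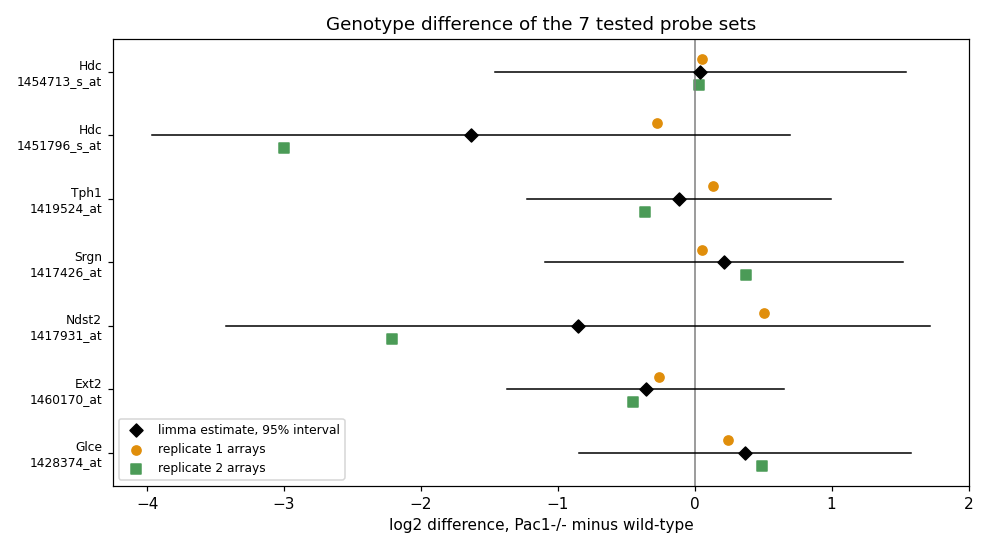
Log2 difference, Pac1-/- minus wild-type, of the 7 tested probe sets: limma estimates with 95% confidence intervals (black diamonds and lines) and the differences between the replicate 1 arrays (orange circles) and between the replicate 2 arrays (green squares). All 7 intervals include 0, and the replicate 2 pair is far from the replicate 1 pair for Hdc 1451796_s_at (-3.00 against -0.27) and Ndst2 (-2.21 against 0.51).

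The polymerase genes were dim. Ext2 (1460170_at), which encodes a subunit of the heparan polymerase complex, read 158 and 132 in Pac1-/- replicates 1 and 2, against 189 and 181 in wild-type replicates 1 and 2. Both Pac1-/- arrays were below both wild-type arrays, and the difference between the genotype means was larger than that between the cultures of either genotype. The lowest value was on Pac1-/- replicate 2, which had the low 5′ GAPDH signal but not the highest beta-actin 3′ to 5′ ratio. The part of RNA quality here was not tested. The difference was -0.36 ± 0.35 (SE, n = 2 per genotype, 95% interval from -1.37 to 0.66; adjusted p = 0.878 by limma), with -0.26 in the replicate 1 pair and -0.45 in the replicate 2 pair. Ext2 was the only one of the 7 tested probe sets in which the genotype difference exceeded the difference between cultures within both genotypes (6 of 7 did not, against 76% of all tested probe sets). Centring each array on its median put Ext2 at 0.11, which was 0.55 under the median over all tested probe sets on that scale. Ext1 (1417730_at), the catalytic partner, was under 100 on all 4 arrays, at 60.4 and 45.7 in Pac1-/- and 47.9 and 88.2 in wild-type replicates 1 and 2, and was not tested.

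Glce, the C5-epimerase that turns glucuronic into iduronic acid, was close to the minimum. The brighter probe set, 1428374_at, read 136 and 107 in Pac1-/- replicates 1 and 2, against 115 and 76.3 in wild-type replicates 1 and 2, and its mean of 109 placed it just inside the tested probe sets. The replicate 2 array was again the lower of each genotype, and the genotypes overlapped. The difference was 0.37 ± 0.42 (SE, n = 2 per genotype, 95% interval from -0.84 to 1.58; adjusted p = 0.886 by limma), with 0.24 in the replicate 1 pair and 0.49 in the replicate 2 pair. It was 0.08 on the values as deposited and 0.71 with median centring, and 0.66 when wild-type replicate 1 was left out and 0.07 when wild-type replicate 2 was. The second probe set, 1425876_a_at, read 43.9 and 55.9 in Pac1-/- and 56.85 and 56.4 in wild-type replicates 1 and 2, with the opposite order of genotypes, and was not tested.

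The variation of each probe set was split between genotype, replicate number and the remainder. The share of a probe set's sum of squares that lay between the replicate numbers was the largest of the 3 shares in 4 of 7 tested probe sets, at 99.7% for Hdc 1454713_s_at, 81.8% for Srgn, 58.9% for Glce and 46.2% for Tph1. Over all 7770 tested probe sets together the replicate numbers held 71.9% of the sum of squares. The number of those probe sets with the replicate share largest was not counted. The genotype share was the largest in Ext2 (78.8%) and Hdc 1451796_s_at (56.97%). The genotype difference had the same sign in both replicate numbers in 5 of 7 tested probe sets, where the background was 61.3%. In Ndst2 the remainder was the largest (56.4%), as the genotype difference changed sign between the replicate numbers. The replicate numbers also differed in sex-linked genes: the brightest Xist probe set read 41.7 and 984 in Pac1-/- and 47.7 and 2952 in wild-type replicates 1 and 2, so sex and replicate number cannot be told apart.

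**Figure D3:**
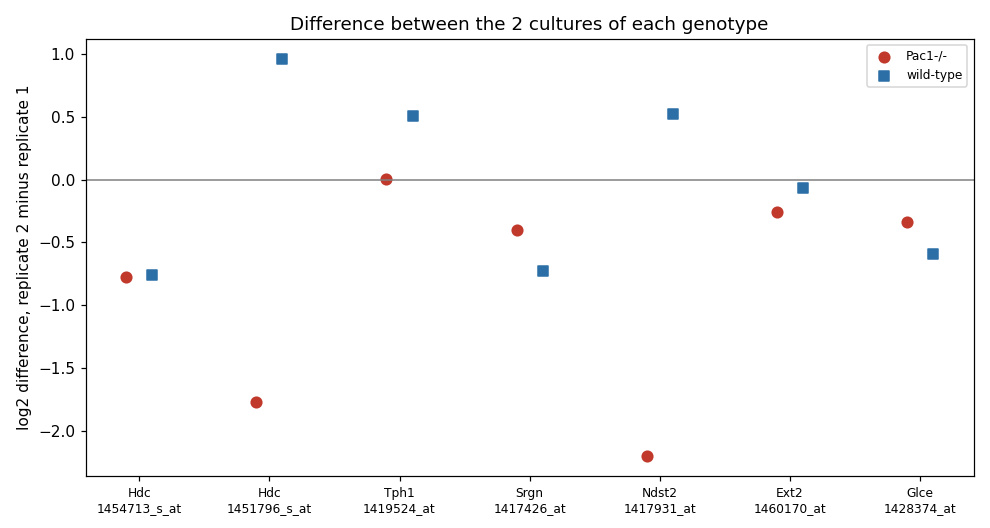
Log2 difference between the 2 cultures of a genotype, replicate 2 minus replicate 1, for the 7 tested probe sets in Pac1-/- (red circles) and wild-type cells (blue squares). Hdc 1454713_s_at, Srgn, Ext2 and Glce are below 0 in both genotypes, and Hdc 1451796_s_at and Ndst2 are at -1.77 and -2.20 in Pac1-/- but 0.96 and 0.52 in wild-type cells.

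The genes around these in the same pathways were read from 6 lists, each gene by its brightest probe set. Leaving out the 9 granule genes, 78 of 96 listed genes had a probe set and 29 were bright enough to test. Of the 29, 19 were above 0 and 10 below, with a median log2 difference of 0.14, against 0.10 and 56.1% above 0 over all 4998 tested genes. None passed limma's adjusted test, where the background was 0%, and 1 of the 29 had an unadjusted p under 0.05, where the background was 2.92%. The genotypes did not overlap in 6 of the 29, against 37.6% of all tested genes.

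In the amine list, 5 of 20 measured genes were bright enough to test, and all 3 that are not granule genes make or recycle tetrahydrobiopterin, the cofactor of Tph1. Gch1, GTP cyclohydrolase, which makes its precursor, read 332 and 3726 in Pac1-/- replicates 1 and 2 and 624 and 4194 in wild-type replicates 1 and 2. Both replicate 2 arrays were far above both replicate 1 arrays, and the genotype difference was -0.54 ± 1.67 (SE, n = 2 per genotype; limma adjusted p = 0.975). Qdpr, which regenerates the cofactor, read 1142 and 1002 in Pac1-/- against 944 and 499.7 in wild-type cells, a difference of 0.64 ± 0.48 (SE, n = 2 per genotype; limma adjusted p = 0.866), and Pts was at 0.32 ± 0.62. The genotypes did not overlap for Qdpr, which was above wild-type on both Pac1-/- arrays. The list median was 0.04. The aromatic amino acid decarboxylase gene Ddc, which completes serotonin synthesis, read at most 50.7 on any array, the serotonin uptake transporter gene Slc6a4 at most 76.8, and the histamine-degrading Hnmt at most 32.25.

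Among heparan and heparin chain enzymes, 7 of 17 measured genes were tested, with 5 above 0 and 2 below, both of them granule genes (Ndst2 and Ext2), and a median of 0.18. The median was -0.10 in the replicate 1 pair and 0.49 in the replicate 2 pair. Of the O-sulfotransferases, Hs3st1, which adds 3-O-sulfate, read 1169 and 3356 in Pac1-/- and 1382 and 2119 in wild-type replicates 1 and 2, and Hs6st2, a 6-O-sulfotransferase, read between 1646 and 1755 in Pac1-/- and between 1227 and 1991 in wild-type cells. Their differences were 0.21 ± 0.69 and 0.12 ± 0.43 (SE, n = 2 per genotype). Hs6st1, another 6-O-sulfotransferase, read 400.4 and 211 in Pac1-/- against 160.1 and 137.5 in wild-type cells, and both Pac1-/- arrays were above both wild-type arrays. Its difference of 0.97 ± 0.49 (SE, n = 2 per genotype) had a limma adjusted p of 0.866 and an unadjusted p of 0.123. The 2-O-sulfotransferase gene Hs2st1 was at 0.18 ± 0.39.

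Chondroitin chain enzymes, of which 4 of 10 were tested, held the single gene past the unadjusted test. Chst11, a chondroitin 4-O-sulfotransferase, read 98.4 and 78.45 in Pac1-/- replicates 1 and 2, against 212 and 258 in wild-type replicates 1 and 2. Both Pac1-/- arrays lay below both wild-type arrays and under 100, so Chst11 met the minimum for testing through its wild-type values. The difference was -1.41 ± 0.38 (SE, n = 2 per genotype; limma unadjusted p = 0.0226, adjusted p = 0.866), with -1.11 in the replicate 1 pair and -1.72 in the replicate 2 pair. Chpf2, of the chondroitin polymerase family, was at -2.06 ± 1.21 and read 43.8 on Pac1-/- replicate 2 against 589 on wild-type replicate 2. Csgalnact2, which starts and extends chondroitin chains, was at 1.03 ± 0.58. Chst15, which makes the disulfated chondroitin sulfate E, read 1996 and 664 in Pac1-/- and 733 and 999 in wild-type replicates 1 and 2, a difference of 0.43 ± 0.70. The list median was -0.49, with -0.12 in the replicate 1 pair and -1.15 in the replicate 2 pair.

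In the list of linkage enzymes and precursor genes, 8 of 10 tested genes were above 0, against 56.1% of all tested genes, with a median of 0.15. Of the linkage enzyme genes, Fam20b was tested, at 0.10 ± 0.87 (SE, n = 2 per genotype), and B4galt7, B3gat3, B3galt6 and Xylt2 were not bright enough. The sulfate donor synthases were Papss1, at 0.46 ± 0.40 (SE, n = 2 per genotype) and without overlap between genotypes, and Papss2, which read 33.7 and 1902 in Pac1-/- and 28.25 and 1302 in wild-type replicates 1 and 2. Papss2 thus followed the replicate number, and so did the phosphatase gene Bpnt1 in the opposite direction, at 850.1 and 7.68 in Pac1-/- and 1484 and 21.75 in wild-type cells. The sugar nucleotide genes Ugdh and Slc35d1 were at 0.34 ± 0.44 and 0.47 ± 0.60, and the sulfate donor carriers Slc35b2 and Slc35b3 at -0.41 ± 0.55 and 0.15 ± 0.44.

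Of 14 measured core protein genes, 3 were tested, and besides Srgn these were Cd44 (-0.58 ± 0.94, SE, n = 2 per genotype) and the perlecan gene Hspg2 (-0.45 ± 0.64). The list median was -0.45, and 8 of the 14 read below 100 on all 4 arrays, among them the glypican gene Gpc1 and the syndecan genes Sdc1 and Sdc2. Breakdown enzymes had 3 of 6 tested genes above 0 and 3 below, with a median of 0.001. Gusb, beta-glucuronidase, read 229 and 24.65 in Pac1-/- and 454 and 180.1 in wild-type replicates 1 and 2 (-1.93 ± 1.32), and again the lowest value was on Pac1-/- replicate 2. The lysosomal enzyme genes Hexa, Glb1, Hgsnat and Ids were at -0.52 ± 0.57, -0.01 ± 0.44, 0.79 ± 0.58 and 0.27 ± 0.82.

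**Figure D4:**
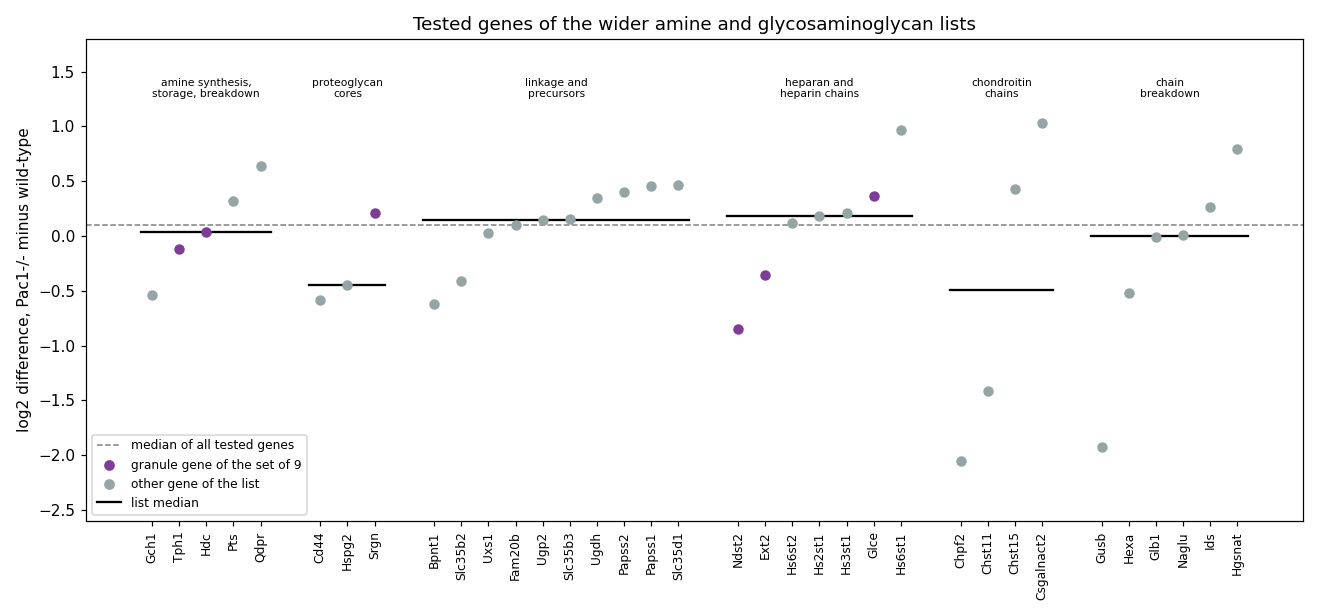
Log2 difference, Pac1-/- minus wild-type, of every tested gene of the 6 pathway lists, ordered within each list; purple points are the granule genes, grey points other genes, black lines list medians and the dashed line the median of all tested genes (0.10). List medians run from -0.49 for chondroitin chains to 0.18 for heparan and heparin chains. Chst11 at -1.41 is the point past the unadjusted test, and it read under 100 on both Pac1-/- arrays.

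Markers of other cells were mostly dim. None of the measured neutrophil (11), basophil and eosinophil (5) or lymphocyte (11) markers was bright enough to test, and their summed intensities ranged from 132 to 555 in Pac1-/- and from 142 to 374 in wild-type cells. The 12 macrophage markers summed to 6129 and 665 in Pac1-/- and 8004 and 646 in wild-type replicates 1 and 2, and Cd68 made up most of it on the replicate 1 arrays but not on the replicate 2 arrays. The 9 erythroid and megakaryocyte markers summed to 2477 and 882 in Pac1-/- and 2486 and 3617 in wild-type replicates 1 and 2. Most of that was Itga2b, which mast cells also express (1721 and 424 in Pac1-/-, 2037 and 3170 in wild-type cells). Vwf, also tested, read 528 and 201 in Pac1-/- and 232 and 214 in wild-type replicates 1 and 2. Pf4 read at most 59.5 and Alas2 at most 3.08. The 10 stromal markers summed to 497 and 272 in Pac1-/- and 891 and 155 in wild-type replicates 1 and 2. Sparc, the stromal marker bright enough to test, read 370 and 3.75 in Pac1-/- and 685 and 3.7 in wild-type replicates 1 and 2. The part of these cells in the granule gene values was not tested.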

How the data were processed

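RNA of 2 Pac1-/- and 2 wild-type cultures was measured. The table deposited by the authors holds a linear intensity for each probe set, and MAS5 is the tool named in the submitters' processing notes. Without 2% at either end, each array averaged 150.1, a sign of scaling to 1 target. The small-sample amplification of 500 to 1000 ng of RNA started from a poly(T) primer, per the labels' protocols, which can favour 3′ ends. The series' design text describes RMA and Limma instead, and RMA values were not used here. Detection calls were not used here.

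Of 22690 probe sets, 64 controls were left out. Linear values were quantile normalised across the arrays, floored at 16 and converted to log2. The 7770 probe sets with a mean of at least 100 entered limma 3.58.1 in R 4.3.3 (lmFit, then eBayes; a two-sided test of genotype with no other term, Benjamini-Hochberg threshold 0.05), with 2 residual and 1.71 prior degrees of freedom. The number of arrays limits the precision. The fit was tested on simulated data with independent noise, which held no gap between replicate numbers as the real arrays do. Plots used matplotlib 3.10.9 (Python 3.11.15). Probe sets were named from the platform annotation (20380 with 1 symbol, 691 with several, 1555 with none), and the promoters come from RefSeq, where 7 of the 9 genes have an entry.

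All probe sets of the 9 genes are named. In each pathway list up to 4 tested genes with the lowest p and up to 3 of the brightest were then named. Chosen after their values were seen were Ddc, Slc6a4, Hnmt, Fam20b, B4galt7, B3gat3, B3galt6, Xylt2, Gpc1, Sdc1 and Sdc2. So were the markers Cd68, Adgre1, C1qa, Itga2b, Vwf, Pf4, Alas2, Sparc, Ms4a2, Mcpt4 and Tpsb2. Genes of like pattern were not sought, since 4 arrays cannot rank patterns. The genes and lists were chosen with earlier results of these data known. The alternatives were other scalings, intensity minimums and floors, an intensity trend, the minimum applied after the adjustment, the replicate number as a block, the mean of a gene's probe sets, and each array left out.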

Additional observations from a re-analysis of the deposited data

How the results depend on the processing

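Of 83 values of the 7 tested probe sets under the alternatives, 75 had the direction reported and 8 the opposite one, and none passed limma's adjusted test (lowest adjusted p = 0.430, Hdc 1451796_s_at with the replicate block, where its unadjusted p was 0.0471). The 8 were Tph1 (0.60) and Ext2 (0.11) with median centring, Hdc 1454713_s_at as the mean of the Hdc probe sets (-0.80) and without Pac1-/- replicate 1 (-0.35) or wild-type replicate 2 (-0.34), Ndst2 without Pac1-/- replicate 2 (0.25), and Tph1 (0.13) and Srgn (-0.15) without wild-type replicate 2. A fit without 1 array borrows the spread of the genotype that kept both, and it mixes some of the gap between replicate numbers into the genotype difference. Over the fits without 1 array, Tph1 ran from -0.37 to 0.13, Srgn from -0.15 to 0.58, Ndst2 from -1.95 to 0.25, Hdc 1451796_s_at from -2.52 to -0.75, Glce from 0.07 to 0.66 and Hdc 1454713_s_at from -0.35 to 0.43. The labels do not say that the replicate number marks a shared batch, although the replicate differences of the genotypes correlated at 0.751 across probe sets. The replicate block is therefore an alternative. With it 0 probe sets passed the adjusted test and 899 an unadjusted p under 0.05 (36.5% higher in Pac1-/-), against 263 (66.5%) without. The count was 1762 with no intensity minimum, 110 with a minimum of 200 and 666 with the minimum applied after the adjustment, and 79 to 408 with an array left out (11.8% to 53.0% higher). The higher share was 53.7% on the deposited values and 91.4% with median centring.

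Median centring put the median of all tested genes at 0.72 and the list medians at 0.85 for amines, 0.84 for linkage and precursors and for heparan chains, 0.54 for breakdown, 0.13 for core proteins and 0.07 for chondroitin chains, the last 3 below the median of all tested genes. With no intensity minimum the medians were 0.16 for amines and 0.41 for chondroitin chains, and with a minimum of 200 they were -0.040, 0.43, -0.18 for core proteins and -0.52 for breakdown. The amine median was 0.22 as deposited and -0.047 with probe sets averaged, which put chondroitin chains at -1.0. Without 1 array, medians ran from -0.12 to 0.54 for amines, 0.091 to 0.37 for linkage and precursors, 0.07 to 0.21 for heparan chains, -0.97 to 0.07 for chondroitin chains, -0.47 to 0.41 for core proteins and -0.26 to -0.032 for breakdown. Centring subtracts the same number from all deposited log2 values of an array, so it moved all differences equally from the deposited scale. The cause of the other moves was not tested. Ext2 and Glce were not tested at a minimum of 200. Values under 100 may be near background, which touches Ext1 and Glce.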
